A study of Homo sapiens with 6 samples.

Results

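TRAPPC6B, FAM135A, GPM6B, RIMKLB, RNF141, TRMT11, TMEM243 and CPNE8 are 8 of the 7682 genes in which C-to-U edits were listed on mRNA isoforms read by PacBio long-read sequencing. They had 11 of the 9831 isoforms in the data. The genes were chosen because their isoforms held many edited Cs in both RBFOX2-INSCRIBE libraries and few in both enzyme-only libraries, so that difference is described below without a test. The position of the edits along each isoform, the sequence around them and the buffer-only libraries were not part of that choice. The edits themselves came from the libraries used for it. Contrasts with other genes in position or sequence, the density of UGCAUG included, are therefore not independent of the choice.

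All 6 libraries came from HEK293T, a human embryonic kidney cell line that the characteristics field of the labels names HEK293XT. In RBFOX2-INSCRIBE, fixed cells received a rabbit antibody against RBFOX2 and the purified fusion of the deaminase APOBEC1 to an anti-rabbit nanobody (Apo1-Nb). The enzyme-only control received Apo1-Nb and no antibody, and the buffer-only control received neither. Each group had 2 libraries, numbered as in the titles: replicates 1 and 2 of RBFOX2-INSCRIBE and of buffer-only, and replicates 2 and 3 of enzyme-only, which the characteristics field numbers 1 and 2. Nothing in the labels says whether replicates were separate cultures. The paper describes replicates on separate slides, and its captions call INSCRIBE replicates technical, without saying so of the long-read libraries. The p-values therefore measure only the spread between these libraries, which may be technical.

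RBFOX2 is an RNA-binding protein that recognizes UGCAUG. It is known for the control of alternative splicing from introns beside its target exons, and it also binds 3′ UTRs. APOBEC1 deaminates C to U and prefers Cs in A- and U-rich RNA, and in this method edits mark RNA near the protein rather than the exact site of contact. An edited C was counted here when it was listed on the strand of its isoform and within its exons, and editsC is the number of edited Cs as a percentage of all Cs in the spliced isoform. The edit fraction is the percentage of reads of that isoform with a U at that C, as the authors deposited it. The files give no read numbers, and depth was not worked out from the fractions here. A low fraction needs many reads, while a high fraction can come from few.

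The sequences that show the pattern best are 30-nt stretches of RNA around UGCAUG in 4 of the 8 genes, read from hg38 5′ to 3′. Capitals mark UGCAUG and the Cs edited in both RBFOX2-INSCRIBE libraries, and the stretches were picked for holding both.
TRAPPC6B, 3′ UTR, exon 6 of 6, chr14:39149371-39149400, minus strand: uCuUGCAUGuugauuaCuaaaaCuauaCuu
RNF141, 3′ UTR, exon 6 of 6, chr11:10514453-10514482, minus strand: uacuucaaCgUGCAUGuuacuaCuuaaaac
GPM6B, 3′ UTR, exon 7 of 7, chrX:13774402-13774431, minus strand: cuuuaguaaaCucaccuUGCAUGguagauu
GPM6B, 3′ UTR, exon 7 of 7, chrX:13773561-13773590, minus strand: CaacuaaguuuuguuaacagagacUGCAUG
CPNE8, 3′ UTR, exon 20 of 20, chr12:38652755-38652784, minus strand: ccaCgaauaauuguaaaggguuuuUGCAUG

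For contrast, TMEM243 had no UGCAUG anywhere in its isoform, and its C with the highest mean edit fraction among those edited in both RBFOX2-INSCRIBE libraries lay in the coding sequence.
TMEM243, CDS, exon 4 of 5, chr7:87197998-87198027, minus strand: uuuguuuucccucaaCuaccuccaaaaccg

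Across the 11 isoforms, 243 and 237 edited Cs were listed in RBFOX2-INSCRIBE replicates 1 and 2. The enzyme-only replicates 2 and 3 held 36 and 62, and the buffer-only replicates 1 and 2 held 23 and 29. Over all isoforms of the data the same libraries held 203684 and 209103, 86425 and 155218, and 73108 and 71791 pairs of isoform and edited C, so the enzyme-only libraries differed from each other by more than the replicates of the other groups did. The order of the enzyme-only libraries was the same in the 8 genes as in all genes. Only isoforms that averaged 5 or more edited Cs over the RBFOX2-INSCRIBE and enzyme-only libraries are described individually, which left 9 isoforms. The other 2 were TRAPPC6B-202, with 12 edited Cs in RBFOX2-INSCRIBE replicate 1 and none in the other 5 libraries, and the non-coding RIMKLB isoform ENST00000504495, with 4 edited Cs in that library and 2 each in enzyme-only replicate 2 and buffer-only replicate 2.

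**Figure D1:**
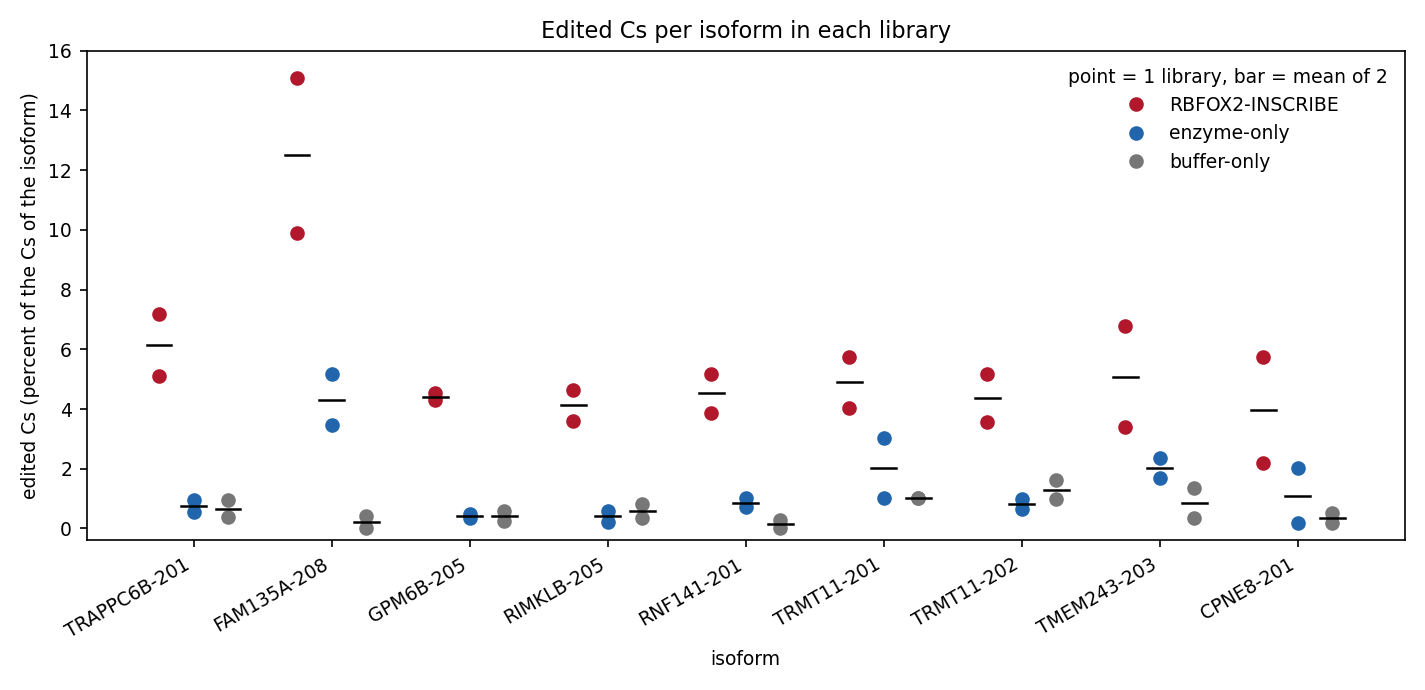
EditsC (edited Cs as a percentage of the Cs of the isoform) on the vertical axis for the 9 isoforms described, on the horizontal axis; points are libraries, coloured by group, and bars are means of 2 libraries. All RBFOX2-INSCRIBE points lie above all control points of the same isoform, FAM135A-208 reaches 15.1%, and in CPNE8-201 the lower RBFOX2-INSCRIBE library (2.2%) lies just above the higher enzyme-only library (2.03%).

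TRAPPC6B, a subunit of the TRAPP complex that tethers transport vesicles, was edited on the isoform TRAPPC6B-201 (ENST00000330149, chr14:39147814-39170333). It held 38 and 27 edited Cs in RBFOX2-INSCRIBE, 5 and 3 in enzyme-only and 5 and 2 in buffer-only. EditsC was 6.14% ± 1.47 (SD, n = 2), 0.756% ± 0.267 and 0.662% ± 0.401 in this order, an 8.12-fold ratio over enzyme-only, and the controls overlapped each other.

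GPM6B, a membrane glycoprotein of the proteolipid protein family, had 36 and 38 edited Cs on GPM6B-205 (ENST00000454189, chrX:13770939-13938638), 3 and 4 in enzyme-only and 5 and 2 in buffer-only. Its RBFOX2-INSCRIBE replicates lay closest together, with an editsC of 4.42% ± 0.169 (SD, n = 2), 10.6-fold the mean of either control. RIMKLB, a ligase that joins glutamate to an acidic partner, had 31 and 40 edited Cs on RIMKLB-205 (ENST00000535829, chr12:8697991-8777191). In the controls RIMKLB-205 held 2 and 5 in enzyme-only and 3 and 7 in buffer-only, and the RBFOX2-INSCRIBE mean was 10.1-fold that of enzyme-only. Both controls of GPM6B and of RIMKLB overlapped.

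RNF141, a RING finger protein, carried 36 and 27 edited Cs on RNF141-201 (ENST00000265981, chr11:10511673-10541187), 5 and 7 in enzyme-only and 2 and 0 in buffer-only. FAM135A, a gene whose function is little described, carried its edits on FAM135A-208 (ENST00000505675, chr6:70556698-70561171), which GENCODE annotates as a retained intron with no coding sequence. This isoform had 35 and 23 edited Cs in RBFOX2-INSCRIBE, 8 and 12 in enzyme-only and 0 and 1 in buffer-only. Its editsC of 12.5% ± 3.66 (SD, n = 2) was the highest of the 9 isoforms, and so were its 4.31% ± 1.22 in enzyme-only. In RNF141 and FAM135A both enzyme-only libraries lay above both buffer-only libraries.

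TRMT11, the catalytic subunit of a tRNA guanosine methyltransferase that works with TRMT112, was edited on 2 isoforms that share most of their exons. TRMT11-201 (ENST00000334379, chr6:125986540-126039276) had 12 and 17 edited Cs in RBFOX2-INSCRIBE, 3 and 9 in enzyme-only and 3 and 3 in buffer-only. TRMT11-202 (ENST00000368332, chr6:125986479-126039276) had 16 and 11, 2 and 3, and 3 and 5. On TRMT11-202 the enzyme-only level did not exceed that of buffer-only.

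TMEM243, a small transmembrane protein, had 10 and 20 edited Cs on its isoform ENST00000433078 (chr7:87196162-87220587), 5 and 7 in enzyme-only and 1 and 4 in buffer-only. CPNE8, a copine that binds phospholipids in the presence of calcium, had 13 and 34 edited Cs on CPNE8-201 (ENST00000331366, chr12:38652203-38905591), 1 and 12 in enzyme-only and 1 and 3 in buffer-only. The SD between their RBFOX2-INSCRIBE replicates was 2.4 percentage points around 5.08% in TMEM243 and 2.51 around 3.97% in CPNE8. The CPNE8 libraries of RBFOX2-INSCRIBE and enzyme-only were separated by a difference of only 1 edited C.

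All 9 isoforms had more edited Cs in each RBFOX2-INSCRIBE library than in either enzyme-only library, as the choice of the genes required, and so had 51.1% of the 5717 isoforms tested. limma on log2 of edited Cs plus 0.5 over Cs called 3 isoforms (0.0525%) higher in RBFOX2-INSCRIBE than in enzyme-only, and 928 had an unadjusted p under 0.05. The log2 differences of the 9 isoforms ran from 1.19 in TMEM243 to 3.27 in RIMKLB with a median of 2.30, beside a median of 0.87 over all isoforms tested. Since the genes were chosen on this contrast, no call is given for the 9. The count over all isoforms depended on the enzyme-only libraries. Without enzyme-only replicate 3, limma called 1853 of 5751 isoforms, and without enzyme-only replicate 2 it called 0 of 6036 while 728 had an unadjusted p under 0.05. Without enzyme-only replicate 2 the median over all isoforms was 0.36, and the log2 difference was 0.79 in CPNE8, from 2.32 with all libraries, and 0.64 in TRMT11-201, from 1.36. With each library scaled to the same total the median over all isoforms was 0.06, and TMEM243 had the smallest log2 difference of the 9, 0.41.

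The buffer-only control shows what is listed in cells that received no Apo1-Nb. Per the paper, this can include endogenous C-to-U editing, RNA damage and errors of reverse transcription or PCR. Each RBFOX2-INSCRIBE library exceeded both buffer-only libraries in all 9 isoforms and in 79.9% of those tested. Over all 5362 isoforms tested, limma with an adjusted p under 0.05 called 60.0% higher in RBFOX2-INSCRIBE. The 9 isoforms were chosen on the same RBFOX2-INSCRIBE libraries and passed the filter on low counts through them, so their differences are given as values with no call. The log2 difference was 5.06 (SE 0.57) in FAM135A and 4.83 (SE 0.80) in RNF141. The smallest was 1.65 (SE 0.41) in TRMT11-202, close to the median of 1.57 over all isoforms tested, and the median of the 9 was 3.13. When each library was scaled to the same total, the median over all isoforms moved to 0.14, and limma called 6 isoforms higher and 17 lower. The log2 differences of the 9 all became smaller, from 0.25 in TRMT11-202 to 4.15 in FAM135A. None changed sign, which the choice of the genes on high RBFOX2-INSCRIBE counts favours.

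Between enzyme-only and buffer-only, 0.811% of the 4438 isoforms tested were called higher in enzyme-only. FAM135A-208 was the only one of the 9 isoforms that averaged 5 or more edited Cs over these 4 libraries, and it did so through the enzyme-only libraries, where it held 8 and 12 beside 0 and 1, so no call is given for it. Its log2 difference was 3.57 (SE 0.75), beside a median of 0.70 over all isoforms. It was 3.17 with each library scaled to the same total, and 2.78 and 4.37 without buffer-only replicate 1 and replicate 2. Both enzyme-only libraries lay above both buffer-only libraries in FAM135A, RNF141 and TMEM243, that is 3 of the 9 isoforms, and in 43.9% of all isoforms tested.

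The lowest edit fraction that a library lists for an isoform did not always move with its number of edited Cs. In TRAPPC6B the RBFOX2-INSCRIBE libraries, with 38 and 27 edited Cs, listed no C below 2.44% and 2.13%. The enzyme-only libraries, with 5 and 3, listed none below 4.55% and 3.45%. The buffer-only libraries, with 5 and 2, listed none below 2.04% and 2.27%, which overlapped the RBFOX2-INSCRIBE values. In 6 of the 9 isoforms both enzyme-only libraries had a higher lowest fraction than both RBFOX2-INSCRIBE libraries, and in 0 of the 9 was it the reverse. Among the isoforms of other genes, 46.5% of 5172 showed the former and 6.65% the latter. The part of this difference in the counts of edited Cs was not tested.

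**Figure D2:**
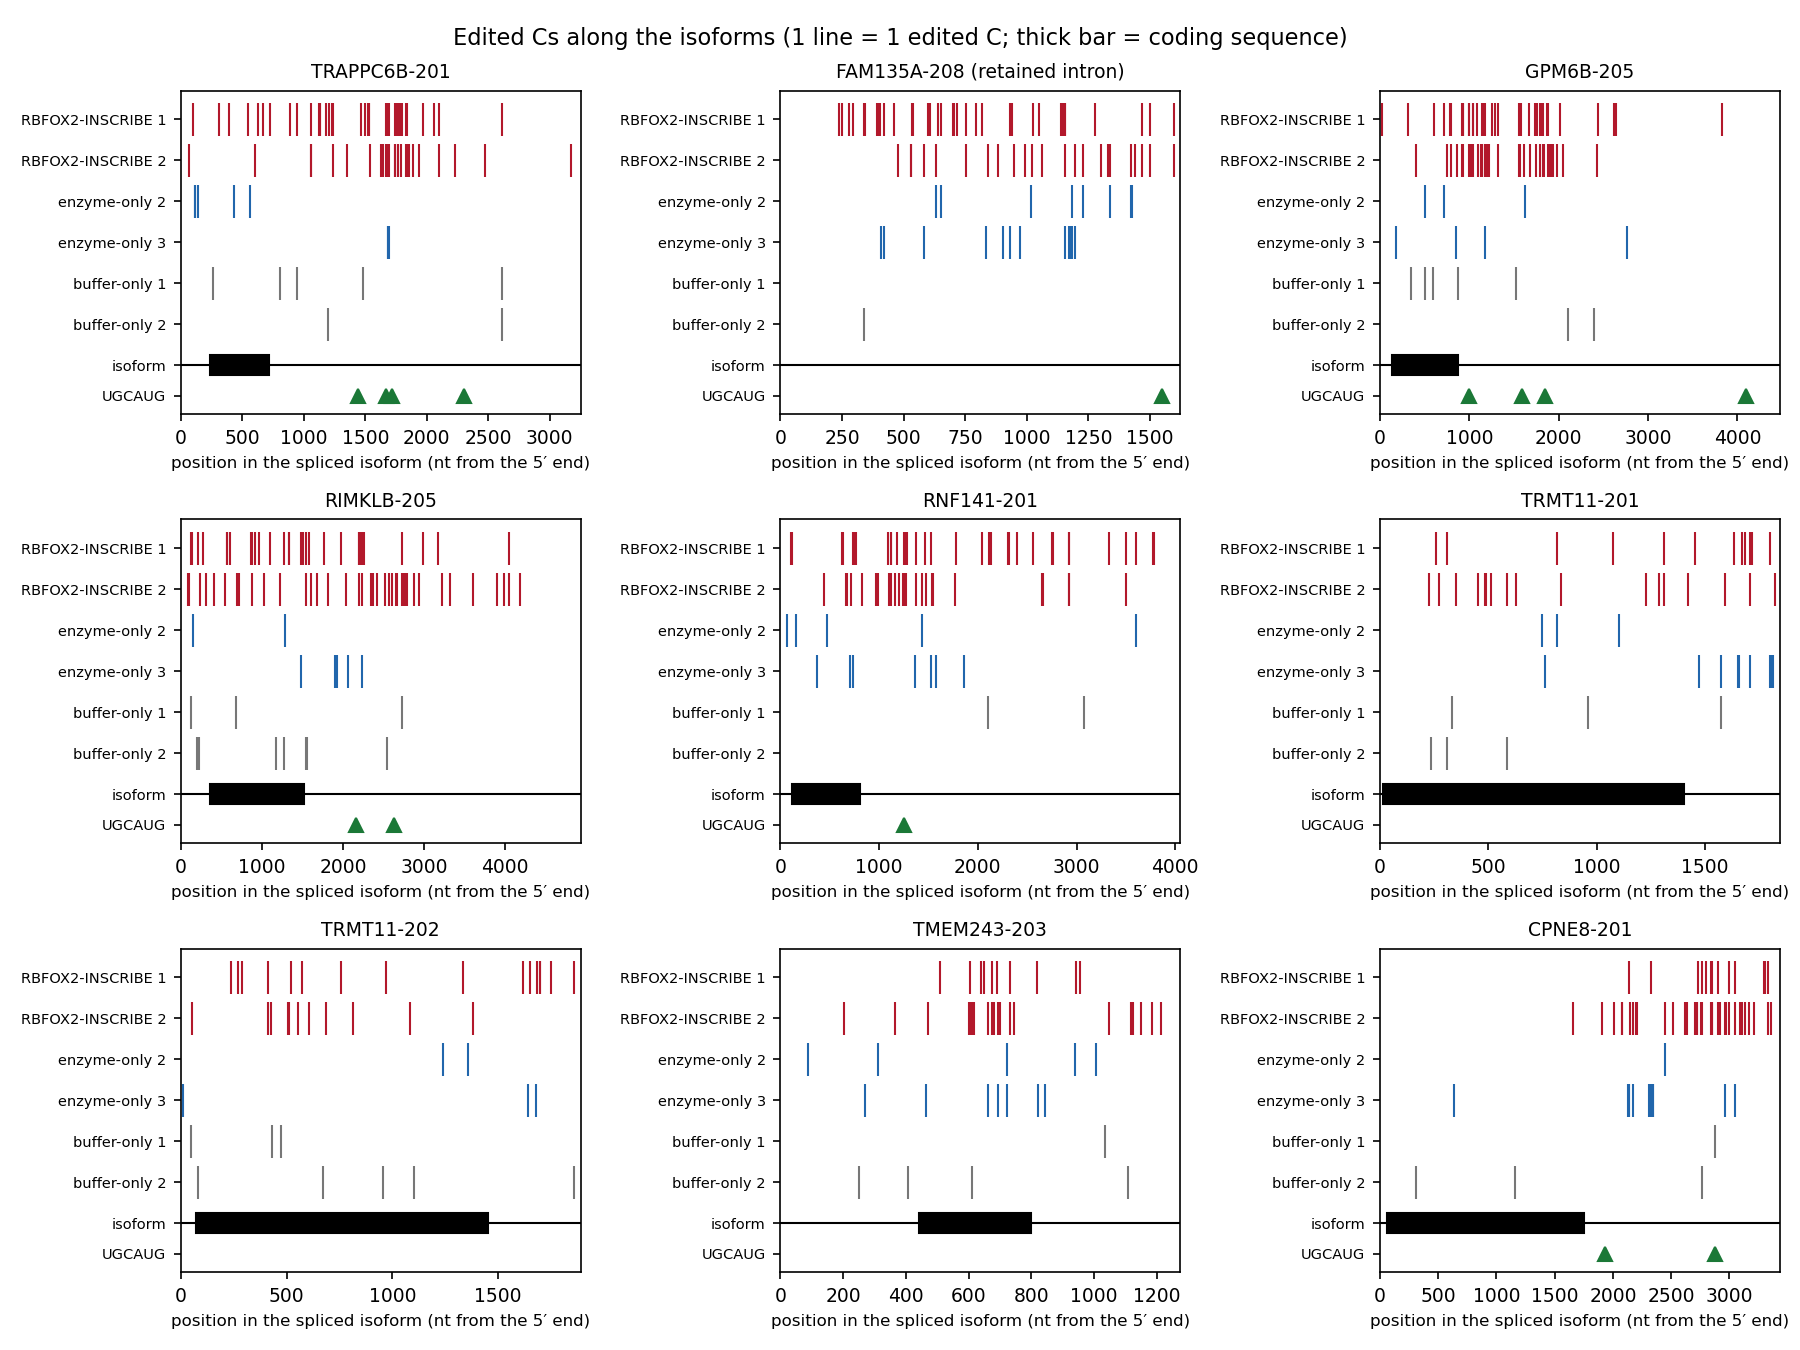
Position of each edited C along the 9 spliced isoforms (horizontal axis, nt from the 5′ end), with 1 row per library (vertical axis), the coding sequence as a thick bar and UGCAUG as triangles. RBFOX2-INSCRIBE edits gather in the 3′ UTR around UGCAUG in TRAPPC6B, GPM6B and CPNE8, in the coding sequence in TMEM243, and spread along FAM135A and RIMKLB. In both TRMT11 isoforms the densest stretches differ between the replicates.

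In the 9 isoforms with a coding sequence, among them TRAPPC6B-202, the 3′ UTR held 57.3% of the Cs and 72.1% and 72.0% of the edited Cs of RBFOX2-INSCRIBE. The enzyme-only libraries disagreed, with 23.1% of 26 edited Cs and 72.0% of 50, and buffer-only gave 52.2% and 38.5%. CPNE8 was edited almost entirely in the 3′ UTR, with 13 of 13 and 33 of 34 edited Cs in RBFOX2-INSCRIBE, where 42.9% of its Cs lay. Of its 12 edited Cs in enzyme-only replicate 3, 11 also fell there. Shares of Cs take no account of how depth varied along an isoform, which was not worked out here. In TRAPPC6B the 3′ UTR held 84.2% and 92.6% of the edited Cs beside 74.3% of the Cs, and in RNF141 80.6% and 85.2% beside 77.3%. The genes did not share a single layout: TMEM243 had 70% and 60% of its edited Cs in the coding sequence, which held 25.4% of its Cs, and the coding share of TRMT11-201 was 41.7% in replicate 1 and 76.5% in replicate 2.

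UGCAUG, searched on the RNA strand only, occurred 18 times in 7 of the 11 isoforms, 4 times each in both TRAPPC6B isoforms and in GPM6B, 2 times in RIMKLB and in CPNE8, and once in RNF141 and in FAM135A. TRMT11, TMEM243 and the non-coding RIMKLB isoform had none. Its density was 0.565 per 1000 nt, against 0.267 in the isoforms of other genes. All 6 member isoforms of 3000 to 5000 nt held it, as did 62.1% of 2869 isoforms of that length in other genes. The TRAPPC6B isoforms share their 3′ UTR, so their occurrences are the same genomic sites counted for each.

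Of the edited Cs, 14.4% and 17.7% lay within 50 nt of UGCAUG in RBFOX2-INSCRIBE, beside 5.55% of all Cs of these isoforms. In enzyme-only these were 2.78% and 4.84%, that is 1 of 36 and 3 of 62, and in buffer-only 8.7% and 0%, 2 of 23 and 0 of 29. Both RBFOX2-INSCRIBE libraries lay above all 4 controls, and 2 libraries against 2 cannot give an exact permutation p below 0.33. Isoforms of other genes had shares of 4.73% and 4.79% for RBFOX2-INSCRIBE, against 2.64% and 2.79% for enzyme-only, beside 2.61% of Cs. The share of edited Cs over the share of Cs was 2.59 and 3.19 in the members and 1.81 and 1.84 in other genes in the RBFOX2-INSCRIBE libraries, a difference that was not tested.

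The 8 genes differed in this. In GPM6B, 11 of 36 and 15 of 38 edited Cs (30.6% and 39.5%) lay within 50 nt of UGCAUG, beside 7.65% of its Cs, and 63.9% and 84.2% lay within 200 nt, beside 23.8%. The 3 UGCAUG of GPM6B at positions 999, 1591 and 1847 of the isoform had 4 and 5, 3 and 3, and 4 and 7 edited Cs around them in the 2 RBFOX2-INSCRIBE libraries. The fourth UGCAUG, at position 4094 near the 3′ end, had 0 and 0. Fractions in replicate 1 were 1.11% at position 992, 8.33% at 2618 and 66.7% at 3830. High fractions can come from few reads, so the zeros at 4094 cannot be told from low coverage. Only 1 edited C of the enzyme-only libraries, and 0 of the buffer-only libraries, lay near any of the 4 UGCAUG.

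In TRAPPC6B, 23.7% and 37.0% of the edited Cs lay within 50 nt of UGCAUG, beside 14.7% of the Cs. The UGCAUG at positions 1668 and 1721 had 4 and 6, and 7 and 7, edited Cs within 50 nt, some of them counted for both, while those at 1438 and 2304 had 1 and 0, and 0 and 0. All 3 edited Cs of TRAPPC6B in enzyme-only replicate 3 fell at positions 1681, 1687 and 1692, just 3′ of the UGCAUG at 1668, in the stretch printed above. RNF141 has 1 UGCAUG, and 3 of 36 and 5 of 27 edited Cs (8.33% and 18.5%) lay within 50 nt of it, beside 2.01% of the Cs, and 0 of the control libraries' edited Cs did.

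CPNE8 had 3 of 13 and 6 of 34 edited Cs within 50 nt (23.1% and 17.6%), beside 5.41% of its Cs, with 1 edited C in buffer-only replicate 1 also there. Of its 2 UGCAUG, the one at position 2874 had 3 and 5 and the one at 1934 had 0 and 1. RIMKLB had 2 of 31 and 4 of 40 (6.45% and 10%) beside 3.25% of its Cs, and FAM135A had 2 of 35 and 2 of 23 (5.71% and 8.7%) beside 4.74%. TRMT11 and TMEM243, without the motif, contributed edited Cs to the totals and none near it.

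**Figure D3:**
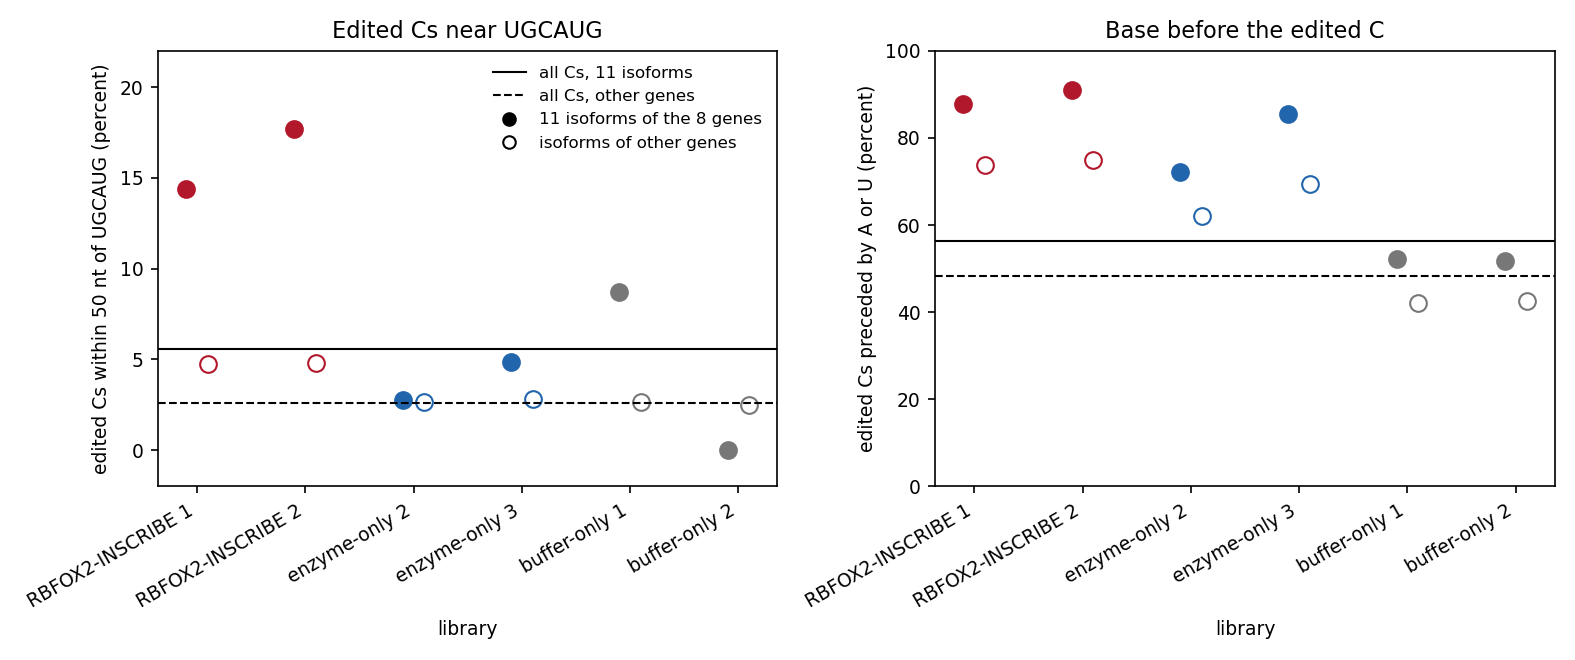
Share of edited Cs within 50 nt of UGCAUG (left, percent) and share of edited Cs preceded by A or U (right, percent) in each library, for the 11 isoforms of the 8 genes (filled points) and for isoforms of other genes (open points); lines give the shares among all Cs. The 2 RBFOX2-INSCRIBE libraries of the members lie at 14.4% and 17.7% on the left, and the shares on the right rise from 52.2% and 51.7% in buffer-only to 87.7% and 91.1% in RBFOX2-INSCRIBE.

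The base before the edited C was A or U for 87.7% and 91.1% of the members' edited Cs in RBFOX2-INSCRIBE, 72.2% and 85.5% in enzyme-only and 52.2% and 51.7% in buffer-only, beside 56.4% of their Cs. Groups did not overlap, and buffer-only lay at or below the composition of the isoforms. Isoforms of other genes showed the same order at lower values, 73.7% and 75%, 62.0% and 69.3%, and 42.0% and 42.6%, beside 48.4% of Cs. In RBFOX2-INSCRIBE the base was A for 58.8% and 59.1% of the members' edited Cs, beside 28.0% of their Cs. RIMKLB replicate 1 had the lowest share of A or U, 22 of 31 (71.0%), and in TRMT11-201 all 12 and all 17 edited Cs followed A or U.

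The replicates listed the same C in 48 cases, 19.8% and 20.3% of the edited Cs of RBFOX2-INSCRIBE replicates 1 and 2, against 23.8% and 23.2% in isoforms of other genes. The enzyme-only pair shared 2 Cs and the buffer-only pair 1. Of the 48 Cs, 43 were in neither enzyme-only library, 18 lay within 50 nt of UGCAUG and 40 followed an A, that is 89.6%, 37.5% and 83.3%. Of 48486 such pairs of isoform and C in other genes, 60.5% were in neither enzyme-only library, 7.66% lay within 50 nt of UGCAUG and 52.4% followed an A. The choice of genes with few edited Cs in enzyme-only favours a high share of Cs in neither enzyme-only library. The composition differed too: 5.55% of the members' Cs and 2.61% of those of other genes lay within 50 nt of UGCAUG. Of the members' Cs 28.0% followed an A, a share that was not worked out for other genes. TRAPPC6B and GPM6B held 6 and 5 of the 18 Cs near UGCAUG. The differences were not tested. Edits found across all replicates and samples were removed by the authors, so a C edited in all 6 libraries could not appear.

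**Figure D4:**
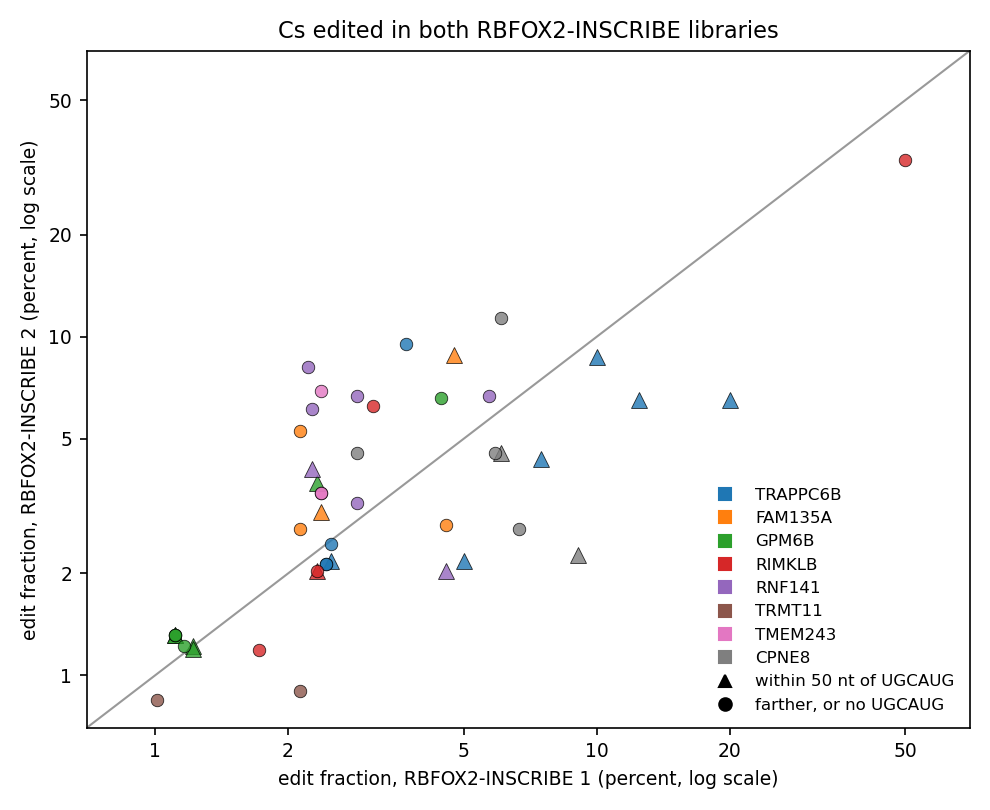
Edit fraction of the 48 Cs edited in both RBFOX2-INSCRIBE libraries, replicate 1 on the horizontal and replicate 2 on the vertical axis (percent, log scales), coloured by gene; triangles lie within 50 nt of UGCAUG and the line marks equal fractions. Most fractions are under 10% in both libraries, and the 3 TRAPPC6B Cs by UGCAUG reach 20% in replicate 1. The C of RIMKLB at 50% and 33.3% has fractions that can come from very few reads.

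TRAPPC6B had 10 of these recurrent Cs, 6 of them within 50 nt of UGCAUG. Among them, the highest mean fractions were those of 3 Cs directly 3′ of the motif in the printed stretch: 10% and 8.7% at position 1681, 12.5% and 6.52% at 1687, and 20% and 6.52% at 1692, which lie 8, 14 and 19 nt from it. In replicate 2 the highest fraction of the isoform was 13.0%, at position 1887, which was not listed in replicate 1. Each of the 3 Cs by the motif was also listed at 3.45% in enzyme-only replicate 3 and in no other control library. The Cs with the highest mean fraction that enzyme-only lacked were at 2102 (3.7% and 9.52%), 1763 (7.5% and 4.35%) and 1738 (5.0% and 2.17%).

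GPM6B also had 10 recurrent Cs, none in enzyme-only or buffer-only, and 7 of them within 100 nt of UGCAUG. The highest were at 1137 (4.44% and 6.58%, 133 nt from UGCAUG), 1560 (2.33% and 3.7%, 31 nt) and 1823 (1.22% and 1.22%, 24 nt, printed above). RNF141 had 7, none in the control libraries, with the highest at 2921 (5.71% and 6.67%), 1377 (2.22% and 8.16%) and 2923 (2.86% and 6.67%). Its Cs at 1248 and 1262 flank the UGCAUG by 2 and 7 nt, as printed above, with 2.27% and 4.08%, and 4.55% and 2.04%.

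CPNE8 had 6 recurrent Cs, all in the 3′ UTR and none in enzyme-only. They were led by position 2768 (6.06% and 11.4%, and 3.57% in buffer-only replicate 2), followed by 2853 and 2900, each 21 nt from the UGCAUG at 2874 on either side, with 9.09% and 2.27%, and 6.06% and 4.55%. FAM135A had 5, with 4.76% and 8.82% at 1500, 48 nt 5′ of its UGCAUG, the highest, then 1154 (2.13% and 5.26%) and 1468 (4.55% and 2.78%). RIMKLB had 5, of which 4 were in neither enzyme-only library. Its highest was position 4043, at 50% and 33.3%, 1403 nt from UGCAUG. In replicate 2, positions 3903, 3989 and 4186 also had 33.3% and position 3601 had 25%, while the next highest fraction of replicate 1 was 3.33%. Fractions as high as those at 3601 to 4186 can come from very few reads, and the ranking by fraction makes no allowance for depth. The other recurrent Cs named by the rule were at 2726 (3.12% and 6.25%, and 6.06% in buffer-only replicate 1) and 2200 (2.33% and 2.04%).

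TMEM243 had 3 recurrent Cs, all in the coding sequence, at 605 (2.38% and 6.9%, printed above), 674 and 730 (2.38% and 3.45% each), and none of them in a control library. TRMT11 had 2, of which only position 1311 in the coding sequence (1.01% and 0.847%) was absent from enzyme-only. The recurrent Cs of TRMT11 lay on TRMT11-201 alone, and TRMT11-202 shared no edited C between the RBFOX2-INSCRIBE replicates.

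To read the position of clusters in a library that had not defined them, the 200-nt window with most edited Cs was found for each isoform in 1 RBFOX2-INSCRIBE library and read in the other. Windows found in replicate 1 covered 6.63% of the Cs and held 50 of the 237 edited Cs (21.1%) of replicate 2, and windows found in replicate 2 covered 6.13% and held 40 of the 227 (17.6%) of replicate 1. The windows held 0.0% and 25.8% of the edited Cs of enzyme-only replicates 2 and 3 in the former case, and 11.8% and 11.3% in the latter, so enzyme-only replicate 3 reached the RBFOX2-INSCRIBE level in windows of replicate 1. Buffer-only replicates 1 and 2 had 4.35% and 10.3% in the former case and 17.4% and 11.1% in the latter, so buffer-only replicate 1, with 4 of 23 edited Cs, was at the level of RBFOX2-INSCRIBE replicate 1 in windows of replicate 2. Of the 16 edited Cs of enzyme-only replicate 3 in windows of replicate 1, 8 were in the 2 TRMT11 isoforms.

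The windows of the replicates overlapped in TRAPPC6B (1666 to 1865 and 1630 to 1829), RNF141 (1090 to 1289 and 1098 to 1297), CPNE8 (2734 to 2933 and 2706 to 2905), TMEM243 (510 to 709 and 600 to 799) and GPM6B (922 to 1121 and 1022 to 1221). In TRAPPC6B the window of replicate 1 held 12 of 38 edited Cs there and 12 of 27 in replicate 2, and in RNF141 7 of 36 and 9 of 27, with 0 in every control library. Windows of TRAPPC6B, RNF141 and CPNE8 contained UGCAUG in both libraries, and that of GPM6B in replicate 1 only. In FAM135A, RIMKLB and both TRMT11 isoforms the windows did not overlap: replicate 1 placed that of FAM135A at 238 to 437, where replicate 2 had 0 of 23 edited Cs, and that of TRMT11-201 in the 3′ UTR, where enzyme-only replicate 3 had 6 of 9.

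Paralogues and complex partners of 6 of the 8 genes, all but RNF141 and TMEM243, were read as a fixed list of 33 genes, of which 19 had listed isoforms, 22 in all. Against buffer-only, 9 could be tested. Their log2 differences in RBFOX2-INSCRIBE ran from 0.58 to 2.74 with a median of 1.89, beside 1.57 over all isoforms tested. Some of them, such as GPM6A and ALKBH8, passed the filter on low counts through the RBFOX2-INSCRIBE libraries, so no calls are given. Against enzyme-only, 0 of 11 were called by limma and 3 had an unadjusted p under 0.05. TRAPPC11, of the same complex as TRAPPC6B, held 46 and 32 edited Cs in RBFOX2-INSCRIBE, 5 and 9 in enzyme-only and 7 and 4 in buffer-only. TRAPPC3, a core subunit of that complex, held 5 and 3, 13 and 14, and 2 and 2. The log2 difference of TRAPPC3 between enzyme-only and buffer-only was 2.48 (SE 0.70). It passed the filter on low counts through the enzyme-only libraries, so no call is given for it. GPM6A, a paralogue of GPM6B, had 10 and 12 edited Cs, 3 and 9, and 2 and 2, and RIMKLA, the paralogue of RIMKLB, 5 and 13, 2 and 7, and 3 and 4. TRMT112, the partner of TRMT11, had 0 and 0, 4 and 5, and 1 and 0.

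Among the 5 isoforms of other genes whose levels over the 6 libraries were most like the mean of the 9, by Euclidean distance in log2 of edited Cs plus 0.5 over Cs, were those of MAP1LC3B (distance 0.69), BCAP29 (0.81), VPS37A (0.84) and NFIA (0.87). MAP1LC3B had 35 and 36 edited Cs in RBFOX2-INSCRIBE, 6 and 14 in enzyme-only and 3 and 6 in buffer-only. NFIA held the most UGCAUG of these 4, with 5.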

How the data were processed

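PacBio Kinnex libraries of 2 RBFOX2-INSCRIBE, 2 enzyme-only and 2 buffer-only samples were analysed. Per the study's methods, the authors built consensus reads with ccs, split and trimmed them with skera, lima and refine, aligned them to hg38 with pbmm2, assigned them uniquely to isoforms with IsoQuant, and left out dbSNP positions and edits that every replicate and sample shared. The annotation used for the long reads is not given in the sources used here. For each listed position of an isoform the authors deposited its edit fraction, without read numbers.

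Positions were placed on GENCODE release 44 isoforms, which held 99.74% to 99.76% of listed pairs, and between 92.0% and 96.9% of pairs lay on the strand of their isoform. Isoforms that averaged 5 or more edited Cs over both groups were tested with limma 3.58.1 (trend, robust, Benjamini-Hochberg) in R 4.3.3, which was tested on simulated data. Python 3.11.15 with pandas 2.3.3 and numpy 2.4.6 did the rest. Named Cs were the 3 per gene with the highest mean edit fraction among those in both RBFOX2-INSCRIBE libraries and neither enzyme-only library. The members, lists and alternatives were chosen with earlier results of these data known. An item that fell under the rules for named genes is not reported here.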

Additional observations from a re-analysis of the deposited data

How the results depend on the processing

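The number of isoforms called higher or lower in RBFOX2-INSCRIBE than in buffer-only by limma, 3221, became 1834 for isoforms averaging 20 or more edited Cs, 598 from edits with a fraction of 0.02 or more and 23 with libraries scaled to the same total, and leaving out each library in turn gave 324 to 2433. Between enzyme-only and buffer-only, 37 became 24 with a pseudocount of 1, 6 for isoforms averaging 1 or more edited Cs, 82 with 1 fit of all 3 groups, and 0 for an average of 20 or more, for fractions of 0.02 or more or with scaled totals, where 176, 153 and 362 isoforms had an unadjusted p under 0.05, and leaving out a library gave 0 to 3 (124 to 1334 at an unadjusted p under 0.05). Between RBFOX2-INSCRIBE and enzyme-only, 3 became 59 with a pseudocount of 1, 5 for an average of 20 or more, and 0 with a pseudocount of 0.1, an average of 1 or more, fractions of 0.02 or more or scaled totals, where 773, 1024, 212 and 432 had an unadjusted p under 0.05, and leaving out a library gave 0 to 1853 (157 to 2801 at an unadjusted p under 0.05). The cause was not tested. The replicate block gave 3024 isoforms in place of 3221 for RBFOX2-INSCRIBE against buffer-only, and the replicates shared only a number (correlation of deviations 0.02). The titles of the enzyme-only libraries share fewer than 2 numbers with the other groups, but the characteristics field numbers them 1 and 2, and a replicate block with these numbers, chosen after seeing the data, gave 12 in place of 37 and 66 in place of 3 (correlations -0.04 and 0.11). Counting listed positions on either strand, an alternative chosen after seeing the data, gave 3134, 34 and 3. The mean share of the members' edited Cs within 50 nt of UGCAUG in RBFOX2-INSCRIBE, 16.1%, was 9.38% within 25 nt (3.13% of Cs), 24.8% within 100 nt (9.74% of Cs) and 21.9% for GCAUG (11.6% of Cs), and 14.4% to 17.7% by library. A mean of 45.0 edited Cs lay in windows found in the other replicate, 24.0 with windows of 100 nt and 67.0 with windows of 400 nt. None of the members' log2 differences changed sign, which the choice of the genes favours in the contrasts with RBFOX2-INSCRIBE. Depth was not worked out, so a C that is not listed was not told apart from a C with too few reads.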

Other observations

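In GPM6B, the highest edit fraction of any library was 66.7% in RBFOX2-INSCRIBE replicate 1, beside a highest fraction of 6.58% in replicate 2 and 2.22% to 4.55% in the 4 control libraries. In RNF141 the highest fraction of all libraries was in enzyme-only replicate 2, at 14.3%, beside 6.67% and 10.7% in RBFOX2-INSCRIBE. The values of 66.7% and 14.3% were each listed at a single C, positions 3830 and 3607. Both can come from few reads, so these maxima do not compare levels of editing. In the buffer-only libraries, the members lay low: the median editsC of the 9 isoforms was 0.348% and 0.507%, beside 0.941% and 0.922% over the 5362 isoforms tested, and 3 of 9 lay above that median in each library. In the enzyme-only libraries, whose low values helped to choose the genes, 2 and 3 of 9 lay above the median. That choice can favour a low level in buffer-only too, which was not tested.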
